A study of Mus musculus with 6 samples.

Results

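Let-7 is a family of microRNAs, short RNAs that are cut from hairpin precursors and guide Argonaute proteins to messenger RNAs. The mouse genome encodes it many times over, and the copies share a seed, the bases near the 5′ end that pair with targets. Let-7 accumulates as cells differentiate, it lowers growth genes such as Hmga2 and the Ras genes, and the RNA-binding protein Lin28 blocks its maturation. The 10 gene rows described here, Mirlet7a-1, Mirlet7a-2, Mirlet7b, Mirlet7c-1, Mirlet7d, Mirlet7e, Mirlet7f-1, Mirlet7f-2, Mirlet7g and Mirlet7i, were taken by name from tables of 23420 genes, 660 of them microRNA genes by symbol. All 10 were listed and had at least 1 read, and 4 of the 10 passed the filter on low counts of the test used here.

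The small RNA came from NIH 3T3 cells, an established mouse fibroblast line kept in medium with 10% calf serum. All 6 libraries came from cells transfected with the pEGFP-NXF3 plasmid, which encodes the nuclear export factor NXF3 fused to a green fluorescent protein. The 3 input libraries were made with no antibody, and the 3 pulldown libraries from RNA recovered with anti-GFP antibody ab290, in 3 experiments. The labels do not say that an input and a pulldown of the same number came from the same experiment. The sources used here give neither the promoter of the plasmid nor the time after transfection, and an antibody control without the bait was not analysed here. The comparison asks whether let-7 RNA took a different place among the RNAs recovered with NXF3 than among those of the input, and each library is a pool of cells, in which a change in some cells and a smaller change in all cannot be told apart.

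Gene reads numbered 769570 in pulldown 1 and between 1884117 and 6946284 in the other 5 libraries. Values in RPM are reads per 1000000 gene reads of the library, and values in CPM are the same after TMM scaling (trimmed mean of M values, the edgeR default), and 1 read was worth 0.223 to 0.667 CPM. Pulldown 1 stood apart. Its log2 CPM correlated with the other libraries at 0.883 to 0.905 across genes, against 0.926 to 0.952 for pairs without it, so results that rest on it are given with and without it. All 15 fibroblast markers of the list had reads, at 287 to 414 RPM among inputs and 180 to 782 among pulldowns, all 6 epithelial markers were at 0 throughout, and adipocyte and leukocyte markers summed to at most 0.305 RPM.

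The sequences are shown first because they bear on how a read of a 5p sequence can be assigned to a member. The 10 members carry 8 different 5p sequences, the main product of a let-7 hairpin, and all 10 hairpins matched the RefSeq microRNA table (GRCm38.p6) by symbol. In each sequence, written 5′ to 3′, the capitals mark the seed, bases 2 to 8.
let-7a-5p: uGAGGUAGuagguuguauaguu
let-7b-5p: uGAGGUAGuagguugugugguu
let-7c-5p: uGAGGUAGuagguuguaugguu
let-7d-5p: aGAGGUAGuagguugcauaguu
let-7e-5p: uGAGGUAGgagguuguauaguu
let-7f-5p: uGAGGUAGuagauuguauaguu
let-7g-5p: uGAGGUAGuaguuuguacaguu
let-7i-5p: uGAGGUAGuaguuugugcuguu
miR-98-5p: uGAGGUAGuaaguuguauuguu
The seed was identical in all of them, miR-98 included, which belongs to the same seed family under another name. Counted from 1 at the 5′ end of let-7a, let-7e differs from let-7a by U9G alone, let-7c by A19G alone and let-7f by G12A alone. Let-7b differs by A17G and A19G, let-7d by U1A and U16C, let-7g by G12U and U18C, and let-7i by G12U, A17G, U18C and A19U. Every 5p sequence is 22 bases long and the hairpins are 83 to 103, so reads of different members are compared here without dividing by length.

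Each count belongs to a gene, not to an arm or a precursor. The hairpins of the members with the most reads are shown because reads from anywhere within them would enter the same count. Capitals mark the annotated 5p and 3p arms.
Mirlet7e: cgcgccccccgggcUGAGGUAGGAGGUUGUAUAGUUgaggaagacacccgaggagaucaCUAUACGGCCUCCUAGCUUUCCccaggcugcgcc
Mirlet7i: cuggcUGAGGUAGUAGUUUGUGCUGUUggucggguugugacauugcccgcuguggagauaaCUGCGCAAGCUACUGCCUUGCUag
Per the labels, gel products of 30 to 375 nucleotides were kept after 14 PCR cycles. The labels do not settle whether this range is of the insert or of the product with adapters, and an insert of a 22-base mature let-7 would lie below it. Mature let-7, its hairpin and longer fragments cannot be told apart in these values.

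By counted reads, the family was a minor component of these libraries. Its 10 rows summed to 57, 49 and 126 reads in inputs 1 to 3 and to 10, 192 and 178 reads in pulldowns 1 to 3, 612 reads in all. Scaled by TMM, inputs 1 to 3 stood at 19.8, 24.5 and 28.1 CPM and pulldowns 1 to 3 at 6.67, 45.4 and 58.9 CPM. Pulldowns 2 and 3 lay above every input library and pulldown 1 below every input library, so the groups overlapped. The input mean was 24.1 ± 4.17 CPM and the pulldown mean 37.0 ± 27.1 CPM (SD, n = 3 each), a 1.53-fold ratio of means (log2 0.62). That log2 ratio was smaller than the SD of log2 CPM within groups, 1.23 when pooled over both. Without pulldown 1 the log2 ratio was 1.12, and without pulldown 3 it was 0.14. A sum over chosen members was given no test.

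The order of the libraries changed with the scale. As a plain share of gene reads the family took 14.9, 26.0 and 32.0 RPM from input and 13.0, 27.6 and 54.3 after pulldown. The exact Clopper-Pearson 95% interval of pulldown 1 ran from 6.23 to 23.9 RPM and held the value of input 1, and that of pulldown 2, 23.9 to 31.8, held the value of input 2. Pulldown 3, with 46.6 to 62.9, lay above the intervals of all 3 inputs. These intervals cover counting error only, since reads amplified without molecular identifiers are not independent molecules. Among reads of microRNA genes, let-7 made up 2.71%, 4.04% and 2.43% of inputs 1 to 3 and 3.01%, 2.29% and 4.13% of pulldowns 1 to 3, means of 3.06% ± 0.861 and 3.14% ± 0.930 (SD, n = 3 each). On that scale pulldown 1 lay inside the input range. All other microRNA genes together summed to 708, 581 and 1127 CPM among inputs and 215, 1941 and 1366 CPM among pulldowns. In CPM pulldown 1 was again below and pulldowns 2 and 3 above every input. In RPM they had 534, 617 and 1286 among inputs and 418, 1181 and 1260 among pulldowns. On that scale pulldown 1 was below every input, and pulldowns 2 and 3 lay inside the input range.

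**Figure D1:**
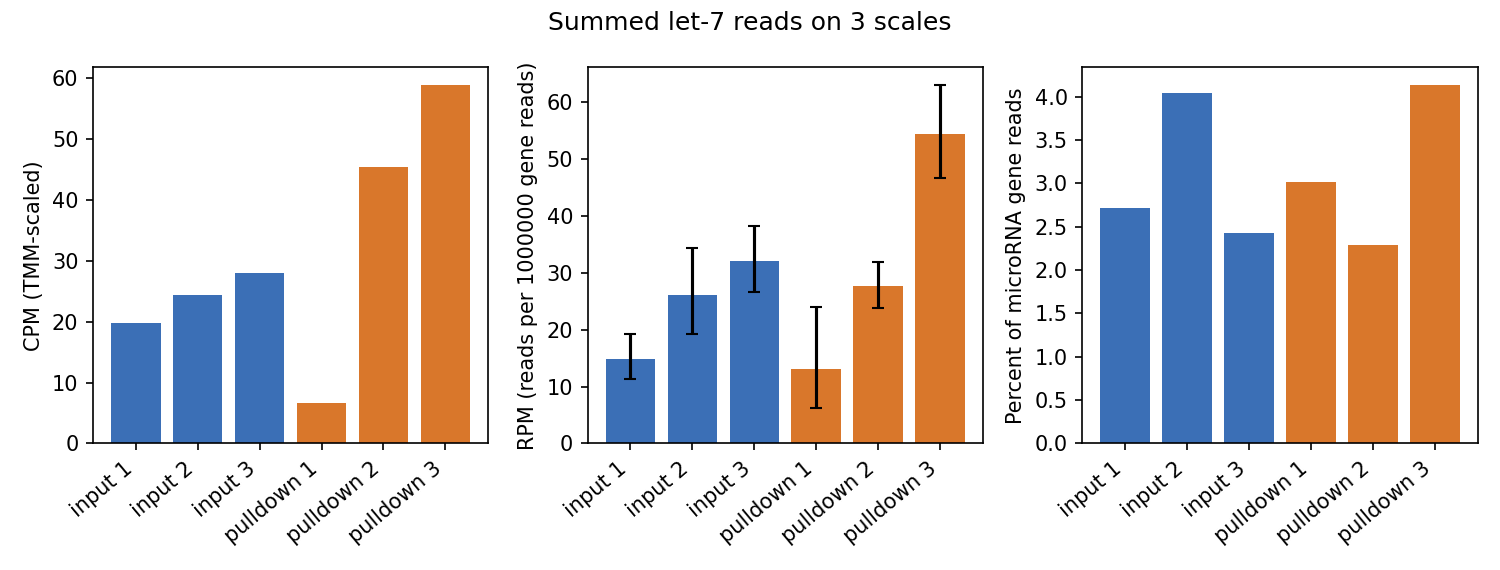
Summed reads of the 10 let-7 genes in each of the 6 libraries, as CPM after TMM scaling, as RPM with exact 95% intervals (bars), and as a percentage of microRNA gene reads. Pulldown 1 is the lowest library on the first 2 scales, at 6.67 CPM and 13.0 RPM, and stands at 3.01% on the third.

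Mirlet7e had the most counted reads over all libraries, 205 or 33.5% of the family, followed by Mirlet7i with 142, Mirlet7d with 106 and Mirlet7b with 89. These 4 held 88.6% of the let-7 reads. Among 200 microRNA genes with a read, Mirlet7e ranked 18th by total reads. The other 6 members had 70 reads between them, from 21 for Mirlet7g and 20 for Mirlet7f-1 through 12 for Mirlet7a-1 and 11 for Mirlet7f-2 to 4 for Mirlet7c-1 and 2 for Mirlet7a-2. This is an order of assigned reads, since the level of let-7a, let-7c and let-7f was not measured here.

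In input the order by mean level was Mirlet7i at 7.11 ± 1.38 CPM, Mirlet7e at 6.03 ± 2.23, Mirlet7d at 4.64 ± 1.60 and Mirlet7b at 3.44 ± 1.18 (SD, n = 3). Each differed from its neighbour in that order by less than the larger of their SDs. The next member, Mirlet7f-1, stood at 0.991 ± 0.691 CPM, below Mirlet7b in each input library. In the pulldown the order was Mirlet7e at 14.3 ± 11.1 CPM, Mirlet7i at 6.89 ± 5.96, Mirlet7d at 6.15 ± 4.69 and Mirlet7b at 5.63 ± 3.25 (SD, n = 3), and neighbours again differed by less than the larger SD.

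**Figure D2:**
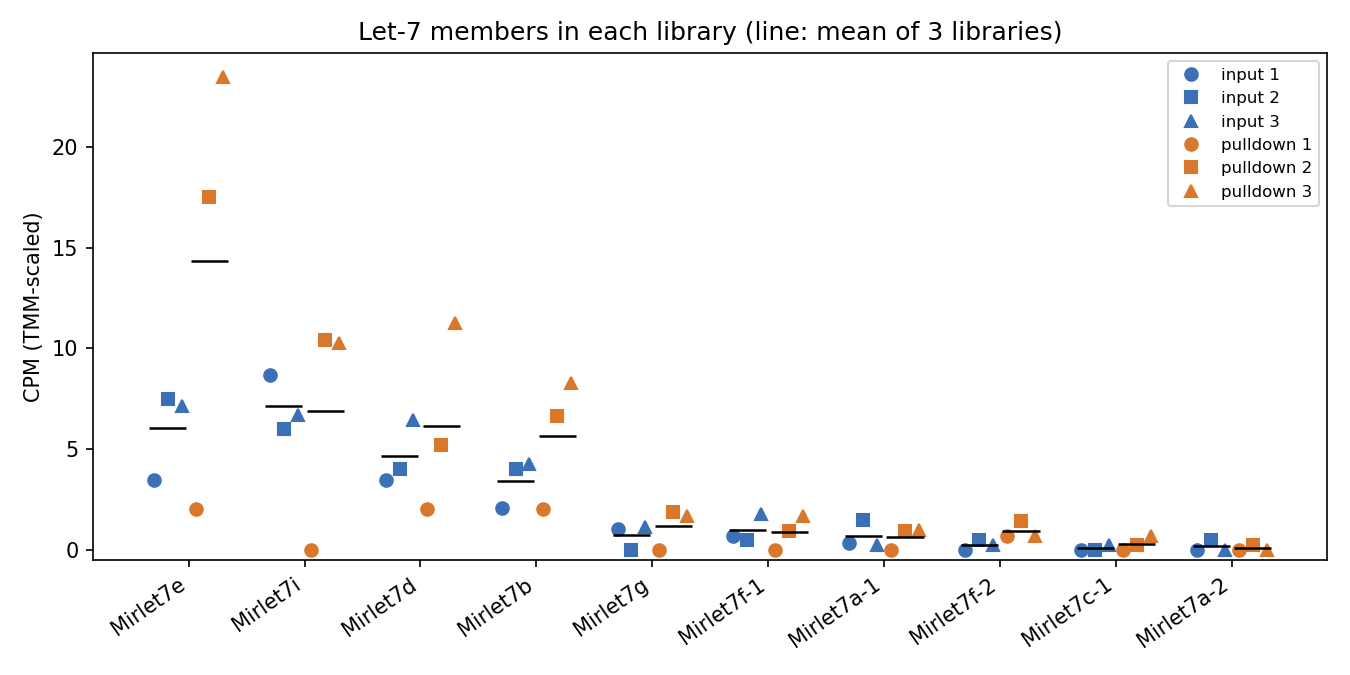
CPM of each let-7 gene in each library, ordered by total reads, with inputs in blue, pulldowns in orange and a line at each group's mean. Mirlet7e reaches 17.5 and 23.5 CPM in pulldowns 2 and 3, while pulldown 1 is at 2.00 CPM.

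Of the 4 members that passed the filter, Mirlet7e had the largest log2 fold. Its reads numbered 10, 15 and 32 among inputs and 3, 74 and 71 among pulldowns, or 3.47, 7.50 and 7.13 CPM against 2.00, 17.5 and 23.5 CPM. In CPM, pulldowns 2 and 3 were above every input and pulldown 1 was below every input. The edgeR log2 fold was 1.35 (SE 0.52, unadjusted 95% interval 0.24 to 2.47), positive in 2 of 3 same-numbered pairs, and it did not pass (adjusted p = 0.825, edgeR quasi-likelihood test with Benjamini-Hochberg adjustment over 1852 genes). Without pulldown 1 the log2 fold was 1.76 (SE 0.33, adjusted p = 0.0108, edgeR), and Mirlet7e was then one of 6 genes called higher among 2261 tested, where the share called was 0.265%. Without pulldown 2 it was 1.22 (adjusted p = 0.940, edgeR), and without pulldown 3 it was 0.95 (adjusted p = 0.904, edgeR). Leaving out single inputs gave 1.09 to 1.55 (adjusted p of 0.822 to 0.919, edgeR). With no filter on low counts its adjusted p was 0.057 (edgeR), where 0.0582% of 12025 genes were called higher. The pulldown 1 value rests on 3 reads in the shallowest library, and the part of depth in the result was not tested.

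Mirlet7i had a smaller log2 fold than Mirlet7e, and the difference between them was not tested. Mirlet7i had 25, 12 and 30 reads among inputs and 0, 44 and 31 among pulldowns, or 8.66, 6.0 and 6.68 CPM against 0, 10.4 and 10.3 CPM. A count of 0 in pulldown 1 allows up to 3 reads, or 2.00 CPM, which is below every input. By edgeR the log2 fold was 0.14 (95% interval -0.97 to 1.25, SE 0.51, adjusted p = 0.995), positive in 2 of 3 pairs, and it turned to -0.18 with total-count scaling. Without pulldown 1 it was 0.54, without pulldown 2 it was -0.22 and without pulldown 3 it was -0.07, so its sign rested on single libraries.

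Mirlet7b and Mirlet7d lay between these. Mirlet7b had 6, 8 and 19 reads among inputs and 3, 28 and 25 among pulldowns, that is 2.08, 4.0 and 4.23 CPM against 2.00, 6.62 and 8.27 CPM. By edgeR it had a log2 fold of 0.82 (95% interval -0.07 to 1.72, SE 0.42, adjusted p = 0.825), positive in 2 of 3 pairs. Mirlet7d had 10, 8 and 29 reads among inputs and 3, 22 and 34 among pulldowns, that is 3.47, 4.0 and 6.46 CPM against 2.00, 5.20 and 11.2 CPM. For Mirlet7d pulldown 2 fell inside the input range, and only pulldown 3 was above every input. The edgeR log2 fold of Mirlet7d was 0.44 (95% interval -0.53 to 1.41, SE 0.45, adjusted p = 0.968), 0.71 without pulldown 1 and -0.21 without pulldown 3.

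Of the 4 tested members, none was called higher and none lower by edgeR, DESeq2 or limma-voom. Over all 1852 tested genes the edgeR shares called were 0% higher and 0.054% lower. At an unadjusted p under 0.05 there was 1 member, Mirlet7e, higher, against 2.27% of all tested genes. All 4 tested members had positive log2 folds, with a median of 0.63, where 49.5% of all tested genes had a positive fold and the median was -0.0039. The fold of Mirlet7i turned negative with total-count scaling and without pulldown 2 or 3, and that of Mirlet7d without pulldown 3. The mean CPM of Mirlet7i was lower in the pulldown, 6.89 against 7.11. Among the 34 other tested microRNA genes, 26 folds were positive and the median was 0.44. In 3 of the 4, Mirlet7b, Mirlet7e and Mirlet7i, pulldowns 2 and 3 were both above and pulldown 1 below every input in CPM. That pattern was found in 2.54% of tested genes and in 35.3% of the 34 other tested microRNA genes. For Mirlet7b, pulldown 1 was below the lowest input by less than the value of 1 read. The pattern rested on TMM scaling, with factors from 0.609 in pulldown 2 to 1.95 in pulldown 1. In plain RPM none of the 3 members had it. No tested member had all 3 pulldowns above all 3 inputs in CPM, which held for 4.27% of tested genes.

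**Figure D3:**
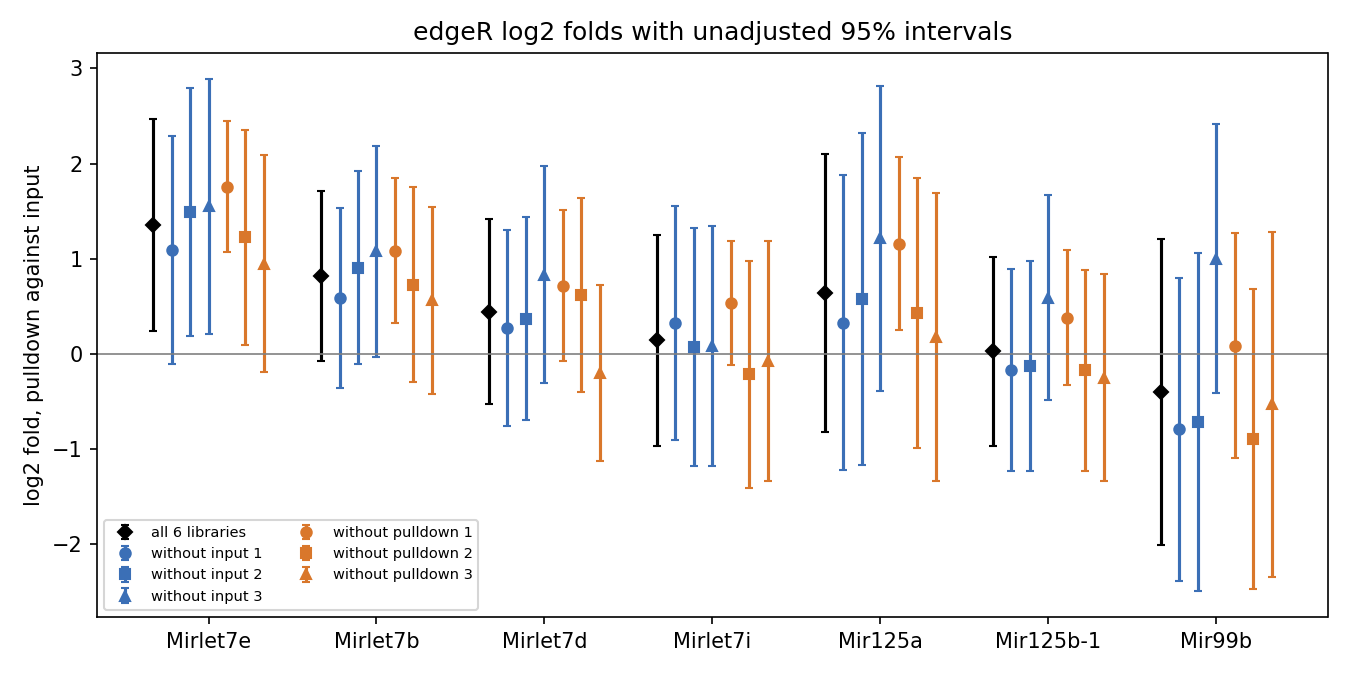
edgeR log2 folds of pulldown against input with unadjusted 95% intervals, for the 4 tested let-7 genes and 3 microRNA genes encoded beside family members, with all 6 libraries (black) and with each library left out. The interval of Mirlet7e lies above 0 with all libraries, 0.24 to 2.47, and is narrowest without pulldown 1. It includes 0 without input 1 (-0.11 to 2.29) and without pulldown 3 (-0.19 to 2.09). The intervals of Mirlet7i include 0 in all 7 fits.

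The make-up of the family needs no scaling between libraries. Mirlet7e supplied 17.5%, 30.6% and 25.4% of let-7 reads among inputs and 30.0%, 38.5% and 39.9% among pulldowns, means of 24.5% ± 6.58 and 36.1% ± 5.36 (SD, n = 3 each). Pulldowns 2 and 3 were above all inputs, pulldown 1 was not, and its exact 95% interval of 6.67% to 65.2% spans every other library. Mirlet7i supplied 43.9%, 24.5% and 23.8% among inputs and 0%, 22.9% and 17.4% among pulldowns, each pulldown below each input. Shares of a sum depend on each other, and this separation was not tested. In CPM Mirlet7i was above every input in pulldowns 2 and 3, at 10.4 and 10.3. With 10 let-7 reads in pulldown 1, a count of 0 allows a share of up to 30.0% there, and the exact interval of pulldown 2, 17.2% to 29.5%, held the values of inputs 2 and 3. Mirlet7d (19.0% ± 3.56 and 20.2% ± 9.32) and Mirlet7b (14.0% ± 3.05 and 19.5% ± 9.06) had shares whose means differed by less than the SD of the pulldown. In reads of Mirlet7e per read of Mirlet7i, inputs 1 to 3 had 0.400, 1.25 and 1.07 and pulldowns 2 and 3 had 1.68 and 2.29, with no ratio for pulldown 1.

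**Figure D4:**
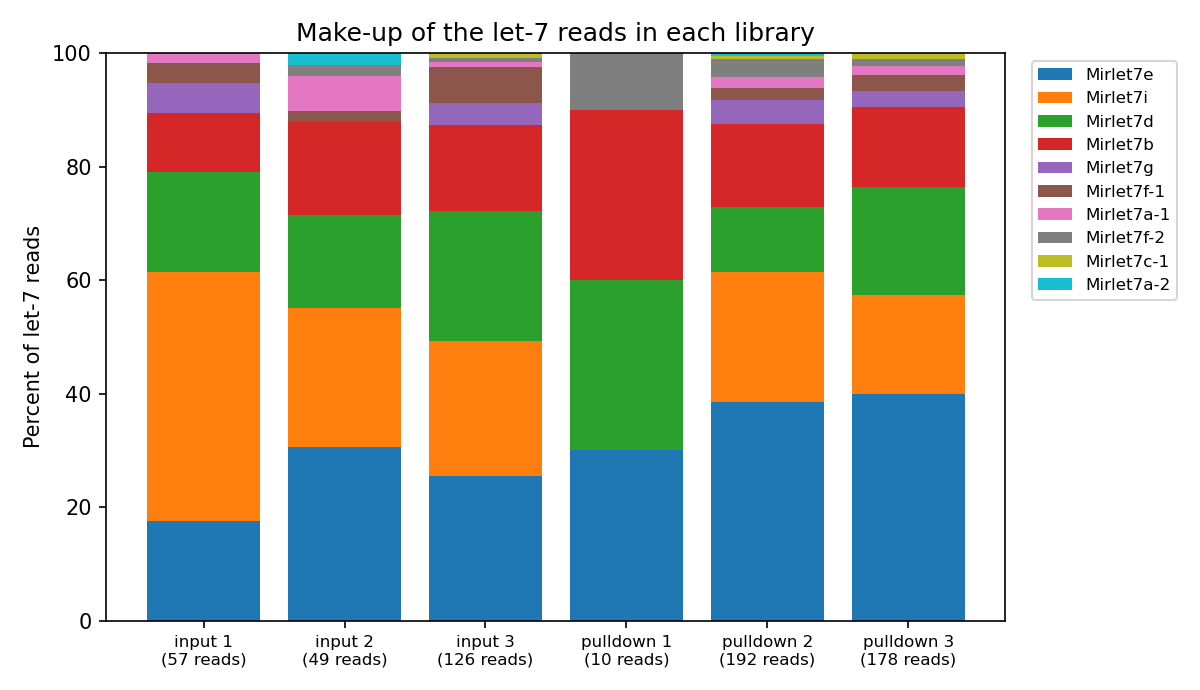
Share of each let-7 gene in the let-7 reads of each library, in percent, with the number of let-7 reads under each bar. Mirlet7e takes 38.5% and 39.9% in pulldowns 2 and 3 against at most 30.6% in input, and the bar of pulldown 1 rests on 10 reads.

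The 6 remaining members fell under the filter, and with no filter none of them was called (adjusted p of 0.866 to 0.986, edgeR). Mirlet7g had 3, 0 and 5 reads among inputs and 0, 8 and 5 among pulldowns, and Mirlet7f-1 had 2, 1 and 8 against 0, 4 and 5. Mirlet7f-2 had 0, 1 and 1 reads among inputs and 1, 6 and 2 among pulldowns. Its level in CPM was 0, 0.500 and 0.223 against 0.667, 1.42 and 0.661, so every pulldown was above every input. That held for 4.27% of the 1852 tested genes, and the share among genes under the filter was not computed. Most of these Mirlet7f-2 values are 1 or 2 reads, and no fold is given. Mirlet7a-1 had 1, 3 and 1 against 0, 4 and 3 reads, Mirlet7c-1 had 0, 0 and 1 against 0, 1 and 2, and Mirlet7a-2 had 1 read in input 2 and 1 in pulldown 2. Differences among them were not detectable at this depth.

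Members whose 5p sequence lies in more than 1 hairpin had few reads. In the RefSeq table let-7a-5p is held by Mirlet7a-1 and Mirlet7a-2, let-7c-5p by Mirlet7c-1 and Mirlet7c-2, and let-7f-5p by Mirlet7f-1 and Mirlet7f-2. The 5 members of those pairs had 49 reads in all, from 2 to 20 each, whereas the 5 members with a 5p sequence of their own had 563, from 21 to 205 each. The split was alike in both groups, with input means of 2.16 ± 1.01 against 21.9 ± 3.47 CPM and pulldown means of 2.81 ± 1.86 against 34.2 ± 25.3 CPM (SD, n = 3). A read of let-7a-5p matches both of its genes equally well, and 6.75% to 9.18% of all reads per library were set aside by the counter for low mapping quality. Which RNAs those reads came from is not given in the tables, so the level of let-7a, let-7c and let-7f was not measured here, and the part of read placement in the order of members was not tested. Among other microRNA genes with a sequence in the table, 7.25% of 69 genes that share a mature sequence reached 10 reads, against 16.3% of 406 that do not. Shares with any read were 31.9% and 33.7%, and the median was 0 reads in both. The 3p arms differ more, since let-7a-2-3p, let-7c-1-3p, let-7f-1-3p and let-7f-2-3p are each held by 1 hairpin, while let-7a-1-3p is also held by Mirlet7c-2.
let-7a-1-3p: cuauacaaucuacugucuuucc
let-7a-2-3p: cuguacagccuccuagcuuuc

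Several members are encoded beside other microRNA genes, within 60 kb on the same strand in GENCODE M21. These models are on GRCm38 and the files on mm9, so only the neighbourhood is used. Mirlet7e lies in an intron of Spaca6, beside Mir99b and Mir125a, and these neighbours had far more reads. Mir99b had 67, 65 and 727 reads among inputs and 15, 365 and 204 among pulldowns, with an edgeR log2 fold of -0.40 (adjusted p = 0.988, SE 0.75). Mir125a had 56, 71 and 295 against 11, 335 and 304 reads, with an edgeR log2 fold of 0.64 (adjusted p = 0.968, SE 0.68). Without input 3 the log2 fold of Mir99b was 1.00 and without pulldown 1 it was 0.08, so its sign rested on single libraries. Without pulldown 1 that of Mir125a was 1.16 (SE 0.44, unadjusted p = 0.0149, adjusted p = 0.417, edgeR).

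Read ratios within this cluster are free of scaling between libraries. Mir125a had 5.60, 4.73 and 9.22 reads per Mirlet7e read among inputs and 3.67, 4.53 and 4.28 among pulldowns, each pulldown below each input. The ratio was picked after its values were seen and was not tested, and 3 Mirlet7e reads set that of pulldown 1. Mir99b had 6.70, 4.33 and 22.7 reads per Mirlet7e read among inputs and 5.0, 4.93 and 2.87 among pulldowns, which overlapped.

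Mirlet7d, Mirlet7f-1 and Mirlet7a-1 form one cluster, and their totals of 106, 20 and 12 reads were unequal although they lie together in exons of one noncoding transcript model, 6720427I07Rik. Mirlet7b, with 89 reads, lies beside Mirlet7c-2, which had 4, of which 0 were in input. Mirlet7f-2 and Mir98 lie in an intron of Huwe1, a ubiquitin ligase gene. Mir98 had 1, 1 and 4 reads among inputs and 0, 13 and 8 among pulldowns, above every input in pulldowns 2 and 3. Its 0 reads in pulldown 1 allow up to 2.00 CPM, which is above every input, and it was under the filter of the test. Adding Mir98 and Mirlet7c-2, the other let-7 seed genes of the tables with a read, to the family sum gave a log2 ratio of 0.67.

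Mirlet7a-2 lies between Mir100, with 36 reads, and Mir125b-1, with 215, and had 2 itself. Mir125b-1 was the only tested gene of these 3, with an edgeR log2 fold of 0.03 (adjusted p = 0.998, SE 0.46). It ran from -0.25 without pulldown 3 to 0.59 without input 3, so its sign also rested on single libraries. Mirlet7c-1, Mir99a and Mir125b-2 lie together and had 4, 1 and 3 reads. Mirlet7g lies in an intron of Wdr82, and Mirlet7i overlaps an exon of the pseudogene model D630033A02Rik. Of the 8 listed cluster partners and their host transcripts, 3 were tested and none was called in either direction by edgeR. With all 6 libraries none was at an unadjusted p under 0.05.

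**Figure D5:**
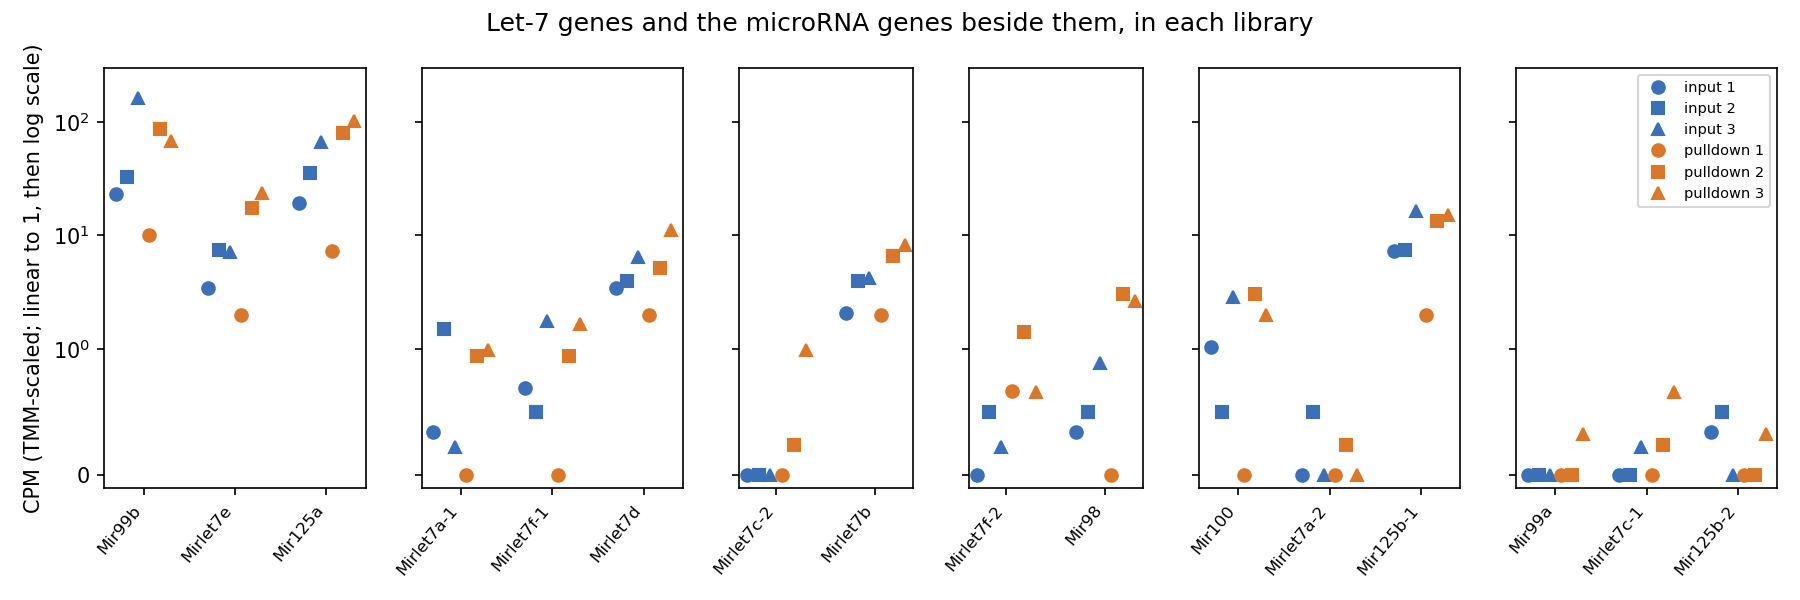
CPM in each library of let-7 genes and the microRNA genes beside them, 1 panel per cluster, on an axis that is linear up to 1 and logarithmic above. In the first panel Mir99b and Mir125a lie above Mirlet7e in every library, and in the second Mirlet7d lies above Mirlet7a-1 and Mirlet7f-1 in every library.

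The genes whose levels followed the family most closely over the 6 libraries were picked by the root mean square difference of log2 CPM, each centred on its own mean. Of 1848 other tested genes, Mir20a was nearest at 0.19, against a median of 1.01 over all of them. Mir20a, a microRNA of another seed family, had 24.9, 40.5 and 53.2 CPM among inputs and 10.7, 65.8 and 77.7 CPM among pulldowns. Plxna2 (0.33), Mir23a (0.35), Mir125b-1 (0.37) and Zfand2a (0.41) came next. Plxna2, a semaphorin receptor gene, and Zfand2a rest on 51 and 60 reads in all. None of these 5 was called (log2 folds 0.03 to 0.39, adjusted p of 0.968 to 0.998, edgeR).

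Genes of microRNA processing were measured only through fragments of their messenger RNAs. Of 15 listed, 8 were tested and none was called (edgeR), with none at an unadjusted p under 0.05, 4 folds positive and 4 negative, and a median log2 fold of -0.0043. Ddx17, a helicase of the Microprocessor, had a log2 fold of 0.54 (SE 0.34), and Tnrc6b and Tnrc6a, partners of Argonaute in silencing, had -0.37 (SE 0.36) and -0.33 (SE 0.39). Dicer1, which cuts the let-7 hairpin, had 18, 5 and 33 reads among inputs and 14, 25 and 21 among pulldowns.

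Regulators of let-7 maturation were sparse. Lin28a had no read in any library and Lin28b had 3 in all, 2 of them in input 3. Of 10 listed, 3 were tested and none was called (edgeR), with none at an unadjusted p under 0.05. Zcchc11, a terminal uridyltransferase that tails let-7 precursors, had a log2 fold of 0.50 (SE 0.42), Trim25, a cofactor of that step, of -0.59 (SE 0.48), and Khsrp, which promotes let-7 processing, of 0.14 (SE 0.44).

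Let-7 target messages were likewise measured through fragments. Of 26 listed, 10 were tested, 7 folds were positive and 3 negative, the median was 0.04, and none was called (edgeR), with none at an unadjusted p under 0.05. Hmga2, the chromatin protein gene with many let-7 sites, had 89, 76 and 132 reads among inputs and 48, 144 and 101 among pulldowns, 32.7 ± 4.59 against 33.2 ± 1.06 CPM (SD, n = 3 each). The smallest unadjusted p-values of this list belonged to Hras1, a Ras gene, with an edgeR log2 fold of -0.45 (adjusted p = 0.960, SE 0.34), and to Igf2bp1, an RNA-binding protein of growing cells, with 0.42 (SE 0.32, adjusted p = 0.962, edgeR), and Dicer1 followed with 0.30 (SE 0.36).

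The Mir30 family, another family of few reads, served as a reference. Its 6 genes summed to 13.5, 11.0 and 18.0 CPM among inputs and 0.667, 69.6 and 29.4 CPM among pulldowns, so pulldown 1 was again lowest and pulldowns 2 and 3 highest. Its highest library was pulldown 2, while that of let-7 was pulldown 3. The difference between the families was not tested.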

How the data were processed

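The authors deposited 1 table per library, of raw counts by gene symbol. The submitters' processing notes name Bowtie, Partek and mouse build mm9, and the file names and summary lines show rRNA removal and HTSeq-count. The sources used here do not give versions, annotation, strand setting or counting mode. The 5 summary lines, 64.4% to 77.8% of reads, were left out. Counts were fitted with edgeR 4.0.16 in R 4.3.3 (TMM, filterByExpr with a minimum count of 10, quasi-likelihood F test between pulldown and input, threshold 0.05). SEs and intervals came from the F statistic. DESeq2 1.42.0, limma 3.58.1 voom, other scalings and filters, a replicate block and leaving out libraries were alternatives. The test was checked on simulated data with larger folds than those of let-7 and no library of outlying composition. That check does not cover the conditions found here. No library pair was identical.

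The members and lists were chosen with earlier results of these data known. Named were all members, tested cluster partners and seed genes, the 3 smallest p of each of the 3 pathway lists, and the 5 genes nearest to the family sum. Further genes (Mir98, Mirlet7c-2, untested cluster partners, Hmga2, Lin28a, Lin28b) were named after their values were seen. Of 660 microRNA genes, 500 matched the RefSeq sequence table.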

Additional observations from a re-analysis of the deposited data

How the results depend on the processing

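Of the members tested, 0 were called higher and 0 lower under each of the 7 alternatives that kept all libraries, although none of the 10 members was tested at a mean of at least 50 counts. Leaving out single libraries gave 0 to 1 higher (Mirlet7e, without pulldown 1) and 0 lower. Mirlet7i had a log2 fold of -0.18 with total-count scaling, and from -0.22 to 0.54 without single libraries. Leaving out single libraries gave -0.21 to 0.83 for Mirlet7d, 0.95 to 1.76 for Mirlet7e and 0.56 to 1.08 for Mirlet7b. Without a filter the adjusted p of Mirlet7e was 0.057 (edgeR), and over all its alternatives it ran from 0.0108 to 1.00. The log2 ratio of the family sum was positive under all 7 alternatives, from 0.04 relative to other microRNA genes, through 0.33 without Mirlet7e, to 0.67 with the other seed genes, and 0.14 to 1.12 without single libraries. Restricting it to the 5 members with a 5p sequence of their own, an alternative chosen after seeing the data, gave 0.64.

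Over all genes, the 0 higher became 7 without a filter and 1 at a mean of at least 50 counts, by DESeq2 and under the replicate block, and 0 to 6 without single libraries. The 1 lower became 0 with total-count scaling and at a mean of at least 50 counts, 9 without a filter and 3 with the replicate block, and 0 to 5 without single libraries. Same-numbered libraries deviated together at correlations of 0.030, 0.065 and 0.136, each the highest for its libraries. The first was so by very little, since input 1 with pulldown 2 had 0.029. These small values are only a weak hint from the data, since the labels do not tie the numbers to shared experiments. With the replicate block the log2 fold of Mirlet7e was 1.19 (adjusted p = 0.472, edgeR). For the family sum, the mean of log2 differences between same-numbered libraries was 0.13. That mean is the same for any pairing, and it differs from the main 0.62 because logs were averaged instead of levels. One read was worth up to 0.667 CPM, which limits every member below about 10 reads a library.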
